A study of Mus musculus with 12 samples.

Results

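Intracisternal A-particle (IAP) elements are the members of the mouse LTR/ERVK repeat family whose subfamily name starts with IAP. They were taken from a deposited table of normalised reads per gene and per single repeat copy, by the family and subfamily written in each row's name. The table held 5687 IAP copies under 98 subfamily names, among 662466 copies of transposable elements and 684965 repeat rows in all. Of the 5687 copies, 4270 overlapped no gene of the GENCODE M21 annotation (build mm10), 1175 lay in a gene but in none of its exons, and 242 overlapped an exon. A further 40193 copies of other LTR/ERVK subfamilies were not members.

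Polyadenylated RNA was sequenced from 12 tumours descending from the mouse melanoma line YUMM1.7, which was derived from C57BL/6 mice, carries a Braf mutation and lacks Cdkn2a function. The labels state that F0 tumours grew from cells of the line placed in syngeneic mice. Tumours were then dissociated and their cells injected into the next mice, through passages F1 and F2 to N2.1, N2.2 and N2.3, then Balb-c1, next Balb/c-2, and last CBA. RNA-seq covered 3 tumours (A to C) from each of F0 and N2.1, and as many from Balb/c-2 and from CBA. All 4 groups carry the same line, no other treatment is labelled, and the strain, age and sex of the later hosts are not given in the labels. The tumours of a group belong to 1 passage, so SDs, SEs and p-values measure the spread between tumours of a passage, not between repeated passage series. By their library names, 7 tumours (all of F0, all of N2.1, and Balb/c-2 A) were run on flow cell 1 and the other 5 on flow cell 2. Depth ran from 34721735 reads (CBA C) to 59404254 (Balb/c-2 C), of which 14703 (CBA B) to 42842 (Balb/c-2 A) fell on IAP copies. Of 7 melanocyte markers in the table, Tyr, Mlana, Dct and Slc45a2 stood at 7.44 normalised reads or lower in every tumour, while Mitf ran from 318 to 1290.

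IAP elements are endogenous retroviruses. A complete copy holds an internal part with the gag, pro and pol genes between a pair of long terminal repeats (LTRs), and the LTR carries the promoter and the polyadenylation signal. Recombination between the LTRs leaves an LTR standing alone. In mouse somatic cells most copies are known to be kept silent by DNA methylation and by histone H3 lysine 9 methylation laid down through KRAB zinc finger proteins, Trim28 and Setdb1. IAP transcripts are abundant in many mouse tumours, and new insertions and insertion differences between strains are well known. In the table, names such as IAPEz-int with IAPLTR1_Mm join an internal part and an LTR that were merged into 1 row.

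Sequences could be read for IAP copies that hold the start of a RefSeq gene. Of the 344 copies tested, 10 overlapped such a window (250 bases before to 50 after the start, build GRCm38.p6). Shown are the windows of 3 copies that were called in a comparison and of 1 abundant copy, chosen after the values were seen because an annotated gene start lies in or beside the copy. Whether reads of the copy begin there was not tested. Capitals mark CpG, the site of DNA methylation. The Gm39637 window (chr1:45734080-45734379, minus strand) and the Csta2 window (chr16:36221312-36221611, plus strand) lay wholly inside their IAP copy. The 6720473M11Rik window (chr16:3633139-3633438, minus strand) had its last 179 bases in the copy, and the Gm52720 window (chr4:3200250-3200549, minus strand) had its last 281.
Gm39637: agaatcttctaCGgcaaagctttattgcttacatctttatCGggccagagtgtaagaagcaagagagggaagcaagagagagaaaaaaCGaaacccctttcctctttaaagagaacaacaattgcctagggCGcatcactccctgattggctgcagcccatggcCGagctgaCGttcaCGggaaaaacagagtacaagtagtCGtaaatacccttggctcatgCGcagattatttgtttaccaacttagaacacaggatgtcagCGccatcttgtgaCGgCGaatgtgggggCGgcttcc
6720473M11Rik: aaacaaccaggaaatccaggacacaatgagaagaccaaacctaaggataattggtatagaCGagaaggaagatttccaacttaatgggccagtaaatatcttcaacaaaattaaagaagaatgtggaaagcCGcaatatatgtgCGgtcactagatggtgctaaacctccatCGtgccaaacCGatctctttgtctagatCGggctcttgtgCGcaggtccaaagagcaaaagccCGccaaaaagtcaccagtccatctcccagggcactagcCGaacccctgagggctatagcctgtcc
Csta2: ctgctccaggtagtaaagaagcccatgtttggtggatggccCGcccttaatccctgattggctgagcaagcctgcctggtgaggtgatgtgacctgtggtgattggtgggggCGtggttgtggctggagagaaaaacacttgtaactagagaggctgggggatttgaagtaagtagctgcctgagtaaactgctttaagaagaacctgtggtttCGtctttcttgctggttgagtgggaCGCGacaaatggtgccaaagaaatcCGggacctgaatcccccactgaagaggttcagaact
Gm52720: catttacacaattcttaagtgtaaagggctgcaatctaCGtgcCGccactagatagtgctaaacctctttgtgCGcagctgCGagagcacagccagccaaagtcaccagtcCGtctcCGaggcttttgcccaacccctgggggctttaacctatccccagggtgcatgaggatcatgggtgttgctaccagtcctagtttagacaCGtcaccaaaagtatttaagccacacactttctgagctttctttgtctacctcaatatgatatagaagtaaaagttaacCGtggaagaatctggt

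The Gm39637 window held 13 CpG, the 6720473M11Rik window 9, the Gm52720 window 8 and the Csta2 window 6, beside a median of 7 over all 32851 RefSeq windows. The longest stretch shared by the Gm39637 and Csta2 windows was 14 bases, as was that shared by 6720473M11Rik and Gm52720. The 5 motifs searched on both strands were the TATA box (TATAAA), the polyadenylation signal (AATAAA), the CRE (TGACGTCA), the STAT site (TTCNNNGAA) and a core of the interferon response element (GAAANNGAA). Only AATAAA was matched, in the Gm39637 window and there on the strand opposite to the gene. Of all windows, 13.6% held TATAAA, 19.6% AATAAA, 1.79% TGACGTCA, 8.3% TTCNNNGAA and 8.56% GAAANNGAA. A motif not matched says only that those letters are not in the window.

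Most IAP copies had few reads. The filter for testing, 10 or more normalised reads in 3 or more tumours, was reached by 344 of the 5687 copies (6.05%), which held 80.5% of the IAP reads. Among copies overlapping no gene, 16 of 1116 shorter than 1000 bases reached it, 38 of 1689 of 1000 to 3999 bases, and 118 of 1465 of 4000 bases or longer. Among copies that overlap an exon 73 of 242 reached it, and among those elsewhere in genes 99 of 1175. Rows named for an internal part, alone or joined to an LTR, held 92.1% of the IAP reads, and rows named for an LTR alone 7.93%. How reads that match several near-identical copies were placed is not given in the sources used here, so the value of a single copy may hold reads of its relatives. A read may also be counted both for a gene and for an IAP copy inside it.

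Summed over all 5687 copies, IAP transcripts did not differ between the 4 passages beyond the spread of tumours. The sum was 17988, 24772 and 16450 normalised reads in the F0 tumours A to C, 21550, 27304 and 19663 in N2.1, 35415, 22972 and 19681 in Balb/c-2, and 21457, 17436 and 21171 in CBA. Balb/c-2 A was the highest tumour, and the ranges of all groups overlapped. Group means were 19737 ± 4428 in F0, 22839 ± 3980 in N2.1, 26023 ± 8299 in Balb/c-2 and 20021 ± 2243 in CBA (SD, n = 3 tumours). With all 15400 ways to divide the 12 tumours into 4 groups, an exact permutation test gave p = 0.463 and, adjusted over 4 sums, 0.749. In bulk tumours, fewer cells of a type and less RNA per cell cannot be told apart.

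The sum over copies overlapping no gene, the copies least exposed to reads of a host gene, was 8220 ± 1711 in F0, 10498 ± 1475 in N2.1, 14274 ± 7078 in Balb/c-2 and 8867 ± 547 in CBA (SD, n = 3; exact permutation p = 0.126, adjusted 0.505). Balb/c-2 A stood at 22429 and the other 11 tumours between 7095 and 12063. Copies in genes but not exons summed to 6952 ± 1660, 8008 ± 1742, 7353 ± 1050 and 6473 ± 775 by passage, from F0 to CBA (adjusted exact permutation p = 0.749). Copies overlapping an exon summed to 4565 ± 1070, 4334 ± 820, 4396 ± 1164 and 4681 ± 1013 in the same order (adjusted exact permutation p = 0.974). Over the 12 leave-one-out fits and the other scalings and subsets tried, the adjusted p of the sum over copies overlapping no gene ran from 0.135 to 0.926. A subset tried was the 2860 copies with no gene within 10 kb. It summed to 2782, 3738 and 2607 in F0 and 5728, 6148 and 4832 in N2.1. In Balb/c-2 it summed to 10927, 5075 and 3382, and in CBA to 3322, 3149 and 2886. Every N2.1 tumour was above every F0 and CBA tumour, while the adjusted exact permutation p lay within the range given.

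**Figure D1:**
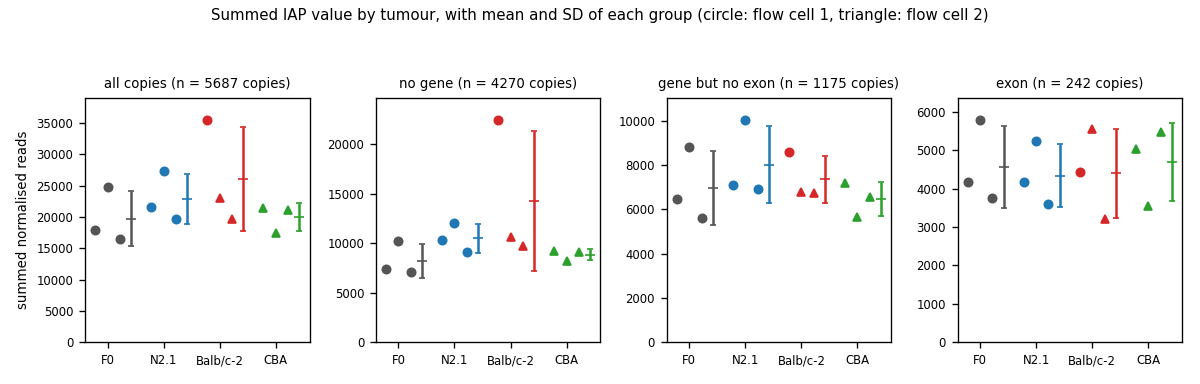
Summed normalised reads (y axis) of IAP copies per tumour, for all copies and for the 3 classes of overlap with genes; circles are tumours on flow cell 1, triangles tumours on flow cell 2, and bars the group mean with its SD (n = 3). Balb/c-2 A stands at 22429 for copies overlapping no gene, above the range of 7095 to 12063 of the other tumours.

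The excess of Balb/c-2 A lay in copies with few reads each. The 5343 copies below the filter summed to 15759 in this tumour and to 2445 to 4838 in the other 11. At least 1 read was found on 3441 IAP copies in Balb/c-2 A, against 962 (CBA B) to 1986 (Balb/c-2 B) elsewhere. The Y chromosome, whose long arm is built of amplified units rich in IAP copies, held 928 of the 5687 copies, 903 of them outside genes. Its IAP copies summed to 6937 in Balb/c-2 A, 850 in N2.1 A, 418 in CBA A and 119.9 to 304 in each of the remaining 9. In Balb/c-2 A 840 of the 928 copies had a read, while 331 had one in N2.1 A and 34 to 191 in the rest. The IAPLTR3 and IAPEY3-int names made up 6294 of the 6937, with no single copy of them above a value of 61.2 in any tumour.

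Other transposable elements of the Y chromosome were highest in the same 3 tumours. They summed to 42804 in Balb/c-2 A, 9491 in N2.1 A, 7818 in CBA A and 2061 to 3155 in the others. The 793 genes of the Y chromosome summed to 15105 in Balb/c-2 A, within the range of 9716 to 19462 of the remaining tumours. Without the Y chromosome, copies overlapping no gene still summed to 15693 in Balb/c-2 A, against 6930 to 11843 elsewhere. All other transposable elements overlapping no gene also summed highest in this tumour, at 532901 against 163847 to 366053. The summed markers of B and plasma cells were highest in it too: all 10 listed genes were in the table, none was at 0 in Balb/c-2 A, and their sum there was 34510. That sum was 692 to 1450 in F0, 727 to 1300 in N2.1, 339 and 869 in the other Balb/c-2 tumours and 725 to 984 in CBA. N2.1 A and CBA A, next highest on the Y chromosome, stood at 864 and 935, within the range of their groups. The part of these cells in the IAP reads was not tested.

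**Figure D2:**
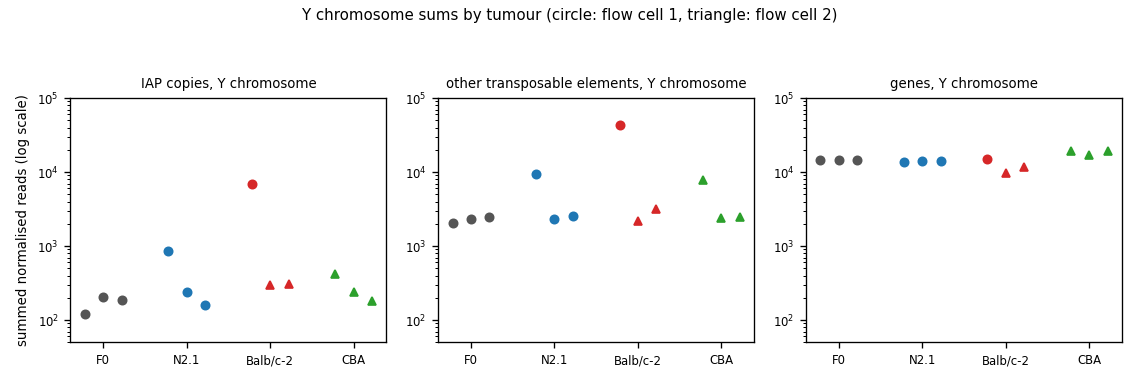
Summed normalised reads (y axis, log scale) on the Y chromosome per tumour for IAP copies, other transposable elements and genes; circles are flow cell 1 and triangles flow cell 2. Balb/c-2 A is highest for IAP copies (6937) and other elements (42804), followed by N2.1 A and CBA A, but is not highest for genes (15105).

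By subfamily, IAPEz-int with IAPLTR1_Mm was the most abundant name, with 789 copies and a mean over tumours of 9858 normalised reads. It did not pass the test in any comparison, with 9507 ± 2656 in F0, 11613 ± 2732 in N2.1, 9917 ± 1486 in Balb/c-2 and 8396 ± 1410 in CBA (SD, n = 3). IAPEY4_I-int with IAPEY4_LTR (24 copies) followed, at 1207, 2250 and 1419 in F0, 541, 734 and 623 in N2.1, 2374, 1494 and 1871 in Balb/c-2, and 2539, 1004 and 3492 in CBA. Every N2.1 tumour was below every other tumour, but the difference from F0 was not called (log2 change of -1.32 ± 0.41 SE, limma adjusted p = 0.136). The next in order were IAPEz-int with IAPLTR2b (mean 1279), IAPEY4_I-int with RLTR46B (1185), IAPEz-int with IAPLTR2_Mm (998.8), IAPEz-int alone (973), IAPEz-int with IAPLTR1a_Mm (774), IAP1-MM_I-int with IAP1-MM_LTR (446), IAPLTR3 with IAPLTR3-int (440) and IAPEY_LTR (409). A single copy made up 96.4% of the IAPEY4_I-int with RLTR46B sum and 54.7% of the IAP1-MM_I-int with IAP1-MM_LTR sum. IAPLTR3 with IAPLTR3-int stood at 3979 in Balb/c-2 A and at 17.8 to 476 in the other tumours.

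Of the 54 IAP subfamilies tested, 2 were higher in N2.1 than in F0 by limma (adjusted p under 0.05 over 1174 subfamilies), beside 2.64% called among all 1174. IAP1-MM_I-int with IAP1-MM_LTR (84 copies) rose from 117, 120.2 and 155 in the F0 tumours to 1460, 935 and 1071 in N2.1, a log2 change of 3.12 ± 0.43 (SE; adjusted p = 0.00303). IAPA_MM-int with IAPLTR2b (16 copies) rose from 2.22, 5.73 and 11.6 to 197, 93.7 and 130, a log2 change of 4.38 ± 0.69 (adjusted p = 0.0061), with 90.9% of the sum over all tumours from 1 copy. Each later group reached the filter alone for this sum, so its p-values are no independent support of a difference from F0. The N2.1 and F0 tumours did not overlap in either subfamily, and leaving out N2.1 A left 1 of the 2 called.

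Between F0 and Balb/c-2, 2 IAP subfamilies rose, beside 2.47% called among all 1174. IAPA_MM-int with IAPLTR2b stood at 259, 36.4 and 93.5 (log2 change 3.91 ± 0.69, limma adjusted p = 0.0136). IAPLTR2_Mm, an LTR name with 245 copies, rose from 159, 192 and 164 in F0 to 619, 289 and 637 in Balb/c-2 (log2 change 1.5 ± 0.35, adjusted p = 0.0442). Of its sum over all tumours, 27.1% came from the chromosome 15 LTR described below. That LTR had a mean of 3.35 in F0 and 178.6 in Balb/c-2, beside 171 and 515 for the whole subfamily. Summed over copies outside genes, IAPLTR2_Mm was not called (log2 change 1.83 ± 0.54, limma adjusted p = 0.0927). Without F0 A or F0 B neither of the 2 called subfamilies stayed called. Without any of F0 C, the 3 N2.1 tumours, Balb/c-2 A, CBA A or CBA C 1 was, and without Balb/c-2 C 10 IAP subfamilies were. The median log2 change was 0.86 over the 54 IAP and 0.53 over all 1174 subfamilies; without Balb/c-2 A the medians were 0.28 and 0.35.

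No IAP subfamily was called by limma in CBA against F0 (9 at an unadjusted p under 0.05, 0 by edgeR, 3 by DESeq2; 0.852% of all called). None was called in Balb/c-2 against N2.1 either (12 unadjusted, 0 by edgeR, 5 by DESeq2; 0.0852% of all). The count was again 0 in CBA against Balb/c-2 (2 unadjusted, 0 by edgeR and by DESeq2; 0.17% of all). When only copies overlapping no gene were summed, 42 IAP subfamilies were tested among 837. In N2.1 against F0 2 were called (1.79% of all): IAP1-MM_I-int with IAP1-MM_LTR (log2 change 3.36 ± 0.49, limma adjusted p = 0.00345) and IAPA_MM-int with IAPLTR2b (4.76 ± 0.75, adjusted p = 0.00411). In Balb/c-2 against F0 2 were called (1.91% of all): IAPA_MM-int with IAPLTR2b again (4.19 ± 0.75, adjusted p = 0.0174), and IAPEY4_I-int with RLTR46B, which fell by 4.25 ± 1.01 (adjusted p = 0.0472). Of these 2 sums over all tumours, 96.2% and 88.0% came from 1 copy each. In the first each later group reached the filter alone, and in the second F0 and N2.1 each did. Their p-values thus describe these sums and are no independent support of a difference. Neither of the 2 sums was called without F0 A or without F0 B, and 1 was without F0 C, N2.1 B, N2.1 C, Balb/c-2 C, CBA A or CBA B. In Balb/c-2 against N2.1 IAP1-MM_I-int with IAP1-MM_LTR was lower (log2 change -2.67 ± 0.49, adjusted p = 0.016; 0.358% of all), a call that ended without N2.1 A, N2.1 C, Balb/c-2 B or Balb/c-2 C. No such sum was called in CBA against F0 (5 unadjusted, 0 by edgeR, 2 by DESeq2; 0.0% of all) or in CBA against Balb/c-2 (4 unadjusted, 0 by edgeR, 1 by DESeq2; 0.358% of all).

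**Figure D3:**
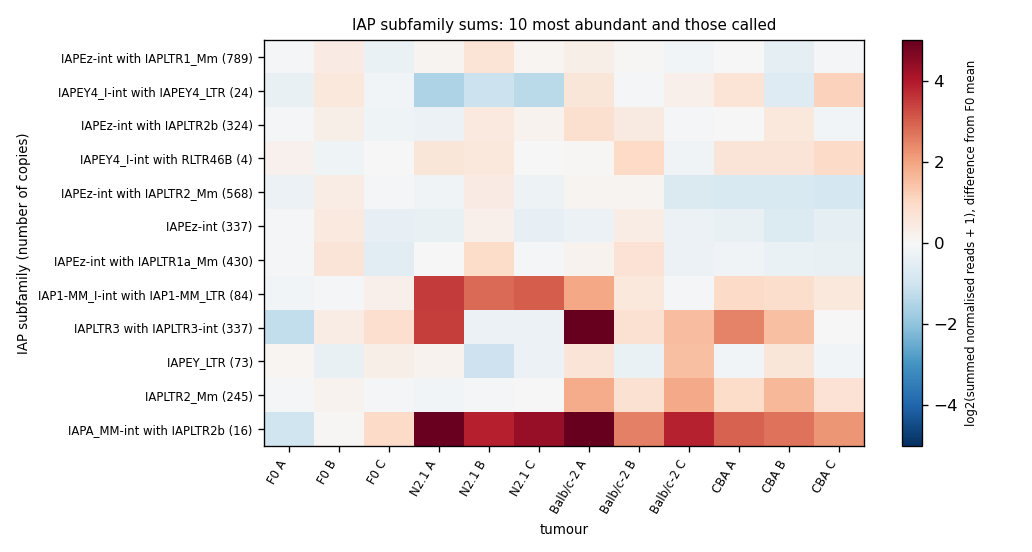
Difference of log2(summed normalised reads + 1) from the F0 mean, as colour, for the 10 most abundant IAP subfamilies and those called in a comparison (rows, with their number of copies) in each tumour (columns). IAP1-MM_I-int with IAP1-MM_LTR is raised in the 3 N2.1 tumours (935 to 1460 against 117 to 155 in F0), and IAPLTR3 with IAPLTR3-int in Balb/c-2 A (3979).

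Copies were also tested singly. In at least 1 of 5 comparisons 30 IAP copies were called by limma, 25 of them overlapping no gene, 3 in a gene but no exon and 2 overlapping an exon, with lengths of 337 to 8332 bases. A name starting with IAPEz-int was carried by 20. Of the 344 tested, 172 overlapped no gene, 99 lay in a gene but no exon, 73 overlapped an exon, and 238 had a name starting with IAPEz. The share of all tested transposable element copies called in at least 1 comparison was not counted. A copy that passed the filter only through the group where it is high had to differ between groups, so the counts over the 344 describe those copies and support nothing about the family.

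In N2.1 against F0 13 of 344 IAP copies (3.78%) were higher and 4 (1.16%) lower, beside 1.38% higher and 0.306% lower among all 20277 copies tested. In Balb/c-2 against F0 10 (2.91%) were higher and 2 (0.581%) lower, beside 0.567% and 0.222%. In CBA against F0 3 (0.872%) were higher and 6 (1.74%) lower, beside 0.755% and 0.281%. In Balb/c-2 against N2.1 2 (0.581%) were higher and 9 (2.62%) lower, beside 0.207% and 0.133%. In CBA against Balb/c-2 none was called by limma (52 at an unadjusted p under 0.05, 0 by edgeR, 14 by DESeq2), beside 0.069% of all in either direction. The median log2 change of the 344 was 0.09, 0.14, -0.21, 0.02 and -0.27 in that order. The comparisons with F0 share its 3 tumours, and those with Balb/c-2 share its 3. Sums of other marker lists moved between the same groups. The 8 interferon response genes summed to 10677 to 57138 in F0, 191988 to 277048 in N2.1, 64633 to 116229 in Balb/c-2 and 96512 to 190413 in CBA. The 10 T and NK cell markers summed to 470 to 6046, 16874 to 24435, 6083 to 14877 and 4292 to 10110 in the same order. No gene of these lists was at 0 in F0 or N2.1. The 8 macrophage markers summed to 89084 to 100157 in F0 and 141103 to 155851 in N2.1, and ran from 56080 to 153552 in CBA. The 6 fibroblast markers summed to 227320 to 361291 in F0 and 123991 to 157225 in Balb/c-2, and the 5 endothelial markers to 4040 to 6418 in F0 and 1952 to 2762 in CBA. The 7 melanocyte markers summed to 350.2 to 394 in F0 and 467 to 1354 later. In F0 this sum was mostly Mitf, and 3 or 4 of the 7 were at 0 in each F0 tumour. The melanocyte sum thus does not describe these markers as a group. The part of these cells in the IAP values was not tested.

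Single tumours moved these counts. Of the 17 copies called in N2.1 against F0, leaving out 1 tumour left 1 (N2.1 A), 2 (N2.1 C), 5 (N2.1 B), 8 (F0 B) or 9 (F0 A or C). For the 12 of Balb/c-2 against F0 the counts were 3 (F0 B or C), 4 (F0 A, N2.1 C or Balb/c-2 A), 5 (N2.1 A or B), 6 (CBA A or C), 20 (CBA B) and 28 (Balb/c-2 B). For the 9 of CBA against F0 they were 2 (CBA A), 3 (CBA C, F0 A or F0 B), 4 (F0 C) and 14 (Balb/c-2 B). For the 11 of Balb/c-2 against N2.1 they were 3 (N2.1 B or C), 4 (N2.1 A or Balb/c-2 A), 7 (Balb/c-2 C) and 23 (Balb/c-2 B). For the 0 of CBA against Balb/c-2 they were 1 (Balb/c-2 C, CBA A or CBA B) and 7 (Balb/c-2 B). With flow cell as a term the counts were 16, 1, 1, 3 and 0, where the comparisons of Balb/c-2 and CBA with F0 and N2.1 rest on Balb/c-2 A as the link between flow cells. With the tumour letter as a replicate block, 6 copies were called in Balb/c-2 against N2.1.

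A group of copies outside genes was near 0 in F0 and high in N2.1. The IAPEz-int with IAPLTR1_Mm copy at chr2:46574320-46579161, a row with internal part and LTR, had no read in F0, 299, 127 and 138 normalised reads in N2.1 A, B and C, 4.13, 5.6 and 0 in Balb/c-2, and 0 in CBA. The N2.1 tumours stood apart from all others. It was at least 188-fold higher in N2.1 than in F0, taking 3 reads over the group as the floor. This copy and the next reached the filter through the N2.1 tumours alone, so a difference was fixed by that choice, no p is given for them, and without any 1 N2.1 tumour they were not tested. A second such copy at chr6:55022353-55025666 had no read in F0 or CBA and stood at 192, 67.2 and 106 in N2.1, and 0, 0 and 1.72 in Balb/c-2. It was at least 122-fold higher in N2.1 than in F0. From N2.1 to Balb/c-2 it fell 212-fold (exact 95% counting interval 58.2 to 1753 from 386 and 2 reads).

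The IAP1-MM_I-int with IAP1-MM_LTR copy at chrX:86532957-86536227, 126711 bases from the nearest gene, stood at 21.1, 13.4 and 30.8 in F0, 1216, 679 and 863 in N2.1, 6.61, 14.9 and 11.2 in Balb/c-2 and 3.61, 59.3 and 3.74 in CBA. The N2.1 tumours were all above the others, and this copy gave most of the subfamily's change. The log2 change was 5.37 ± 0.81 from F0 to N2.1 (limma adjusted p = 0.00564, or 0.0522 without N2.1 A) and -6.30 ± 0.81 from N2.1 to Balb/c-2 (adjusted p = 0.00259, or 0.0674 with flow cell as a term). The IAPEz-int with IAPLTR1_Mm copy at chr2:174984010-174991118 stood at 5.55, 22 and 17.3 in F0, 122, 401 and 210 in N2.1, 0, 2.8 and 0 in Balb/c-2 and 2.71, 2.37 and 0 in CBA. N2.1 was again above all other tumours, and Balb/c-2 below all F0 tumours. Its rise from F0 to N2.1 (log2 change 3.96 ± 0.83, limma adjusted p = 0.027) lost its call without any 1 of the F0 or N2.1 tumours, with adjusted p of 0.0661 (without F0 B) to 0.153 (without N2.1 C), by edgeR (0.0629) and without a filter (0.136). Its fall from N2.1 to Balb/c-2 was 276-fold (exact 95% counting interval 94.1 to 1342 from 756 and 3 reads; limma adjusted p = 0.00139, and 0.0393 with flow cell as a term). This copy would not have reached the filter without the N2.1 tumours, and Balb/c-2 had no part in it. Its p-values thus describe the copy and are no independent support of a difference.

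Copies of lower value had the same course. The IAPLTR3-int with IAPLTR4 copy at chr7:106267234-106270075 stood at 5.55, 0.954 and 7.71 in F0, 79.5, 228 and 143 in N2.1, and at most 6.53 in every Balb/c-2 and CBA tumour. The IAPEz-int with IAPLTR2_Mm copy at chr4:74927164-74932203 stood at 2.22, 6.68 and 0.964 in F0, 57.7, 143 and 127 in N2.1, and at most 4.29 in Balb/c-2 and CBA. In both, N2.1 lay above all other tumours. They too reached the filter through N2.1 alone, ranked below the number of copies the naming rule takes and were chosen after their values were seen.

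The IAPA_MM-int with IAPLTR2b copy at chr6:128921112-128921785 was found in every later tumour and in no F0 tumour. It had no read in F0, 187, 83.5 and 126 in N2.1, 234, 24.3 and 92.6 in Balb/c-2 and 46.0, 41.5 and 27.4 in CBA. No later tumour overlapped F0. Against the floor of 3 reads it was at least 133-fold higher in N2.1, 120-fold in Balb/c-2 and 39.0-fold in CBA (limma adjusted p = 0.000231, 0.000378 and 0.00208). With flow cell as a term the limma adjusted p were 0.000261, 0.00154 and 0.0372. F0 had no part in this copy passing the filter, which each later group reached alone. These p-values thus describe this copy and are no independent support of a difference. The IAPEz-int with IAPLTR2a copy at chr6:128922921-128925092, its neighbour, also had no read in F0 and stood at 30.3, 29.5 and 31.6 in N2.1, 18.2, 14.9 and 5.15 in Balb/c-2 and 4.51, 5.93 and 2.49 in CBA. The nearest gene in the table, the pseudogene Gm44223, had at most 7.22 normalised reads in any tumour, and Clec2g, 12596 bases from the first copy, 0 to 18.3.

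The lone LTR IAPLTR2_Mm at chr15:99106517-99107001 was high in Balb/c-2 and CBA. It stood at 3.33, 3.82 and 2.89 in F0, had no read in N2.1, and stood at 145, 52.3 and 339 in Balb/c-2 and 106.5, 254 and 101 in CBA. All 6 later tumours were above all 6 earlier ones. The log2 change against F0 was 5.0 ± 0.67 in Balb/c-2 and 5.02 ± 0.67 in CBA (limma adjusted p = 0.00241 and 0.00247, but 0.0743 and 0.443 with flow cell as a term), and it was at least 190-fold higher in Balb/c-2 than in N2.1 (0.000265, and 0.0249 with flow cell). Balb/c-2 A, sequenced with F0 and N2.1 on flow cell 1, stood at 145. F0 and N2.1 had no part in the LTR passing the filter, which Balb/c-2 and CBA each reached alone. Its p-values thus describe this LTR and are no independent support of a difference. This LTR lies 1780 bases downstream of Dnajc22, which encodes a J-domain protein and was chosen after its values were seen. Dnajc22 stood at 7.77, 9.54 and 12.5 in F0, 3.79, 4.07 and 5.42 in N2.1, 293, 245 and 292 in Balb/c-2 and 208, 467 and 308 in CBA, with log2 changes against F0 of 4.68 ± 0.39 and 4.85 ± 0.39 (limma adjusted p = 7.56e-05 and 3.57e-05, and 0.00414 and 0.016 with flow cell as a term). Whether reads of the gene run into the LTR was not tested.

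Other rises in Balb/c-2 or CBA were smaller. The IAPEY4_I-int with IAPLTR4 copy at chr1:101897874-101903028 stood at 11.1, 17.2 and 25.1 in F0, 34.1, 24.5 and 20.8 in N2.1, 198, 122 and 43.7 in Balb/c-2 and 291, 115 and 319 in CBA. CBA did not overlap F0 (log2 change 3.63 ± 0.59, limma adjusted p = 0.0108), and the call ended without CBA A (0.0819), without CBA C (0.0638) and with flow cell as a term (0.2). The IAPEz-int with IAPLTR1_Mm copy at chr1:45734076-45738998, which holds the Gm39637 window printed above, stood at 27.8, 35.3 and 8.67 in F0, 87.1, 89.6 and 46.1 in N2.1, 274, 145 and 81.5 in Balb/c-2 and 40.6, 29.7 and 61.0 in CBA. Balb/c-2 was above F0 throughout (log2 change 2.78 ± 0.59, limma adjusted p = 0.0452). A like copy at chr4:78512161-78517354 stood at 28.9, 19.09 and 7.71 in F0, 49.2, 66.2 and 110 in N2.1, 90.1, 211 and 101 in Balb/c-2 and 7.22, 21.4 and 26.2 in CBA (Balb/c-2 against F0: 2.85 ± 0.62, limma adjusted p = 0.0481). Each of these last 2 calls ended in 9 of the 12 leave-one-out fits, with adjusted p up to 0.196 for the chromosome 1 copy without Balb/c-2 A and up to 0.176 for the chromosome 4 copy without F0 C. Both stayed called without Balb/c-2 B and without CBA B. They also lost their calls by edgeR (0.0857 and 0.0917), without a filter (0.183 and 0.273), with total gene reads scaling (0.0649 and 0.0636) and with flow cell as a term (0.121 and 0.445).

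**Figure D4:**
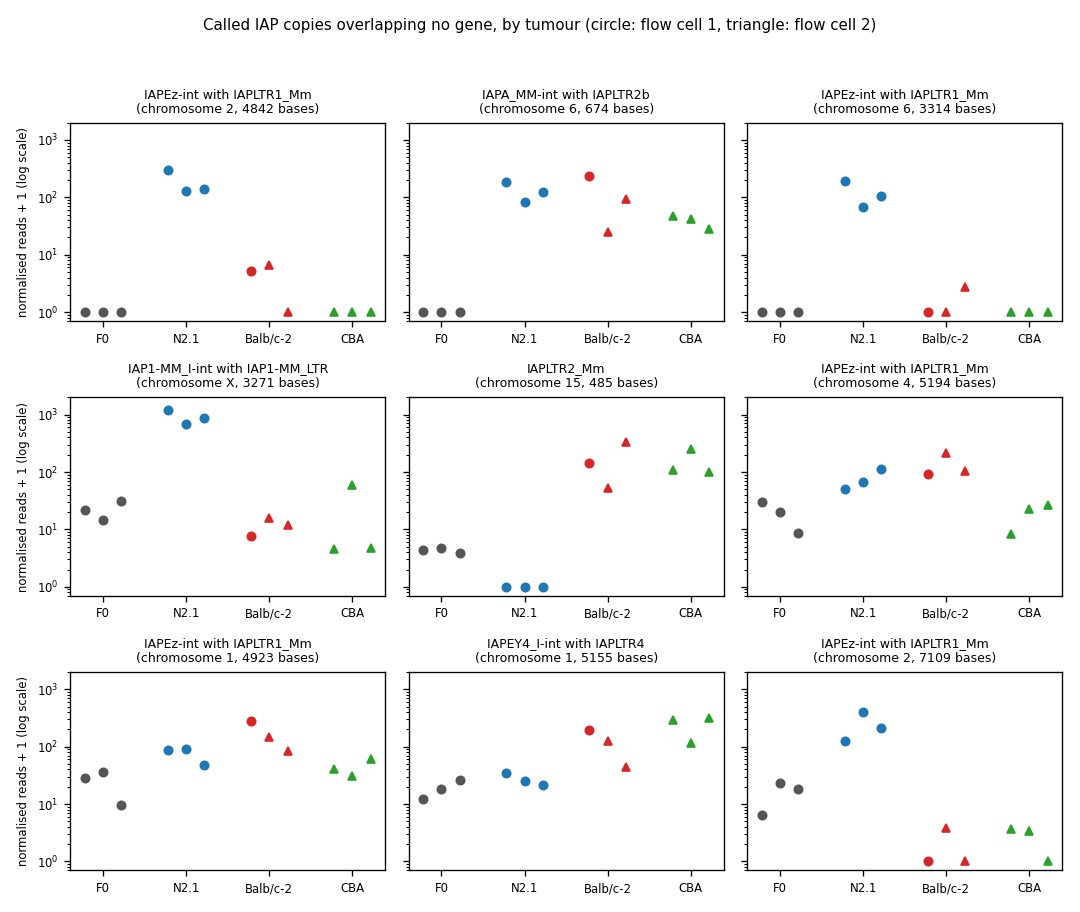
Normalised reads + 1 (y axis, log scale) in each tumour for the 9 IAP copies overlapping no gene that were named by change; circles are flow cell 1 and triangles flow cell 2. Of the 5 copies highest in N2.1 or first seen there, the chromosome X copy reaches 1216, and the chromosome 15 LTR is at 0 in N2.1 and at 52.3 to 339 in Balb/c-2 and CBA.

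Falls from F0 were found in copies of fewer reads, none of which reached the mean of 100 asked for by the naming rule, so they too were chosen after their values were seen. The IAPEY4_I-int with RLTR46B copy at chr16:3624986-3633317, whose end lies in the 6720473M11Rik window printed above, stood at 71.0, 137 and 67.5 in F0, 36.9, 79.5 and 35.2 in N2.1, 0, 1.87 and 0 in Balb/c-2 and 0.902, 0 and 11.2 in CBA. All Balb/c-2 and CBA tumours were below all F0 and N2.1 tumours. It was 160-fold lower in Balb/c-2 than in F0 (exact 95% counting interval 43.8 to 1327 from 277 and 2 reads; limma adjusted p = 0.00499), and lower in CBA by a log2 change of -4.94 ± 0.87 (0.0164). F0 and N2.1 each reached the filter alone for this copy, without need of Balb/c-2 or CBA. Its p-values thus describe the copy and are no independent support of a difference. The IAPEz-int copy at chr8:124578760-124581698, in Capn9 but in none of its exons, stood at 29.97, 58.2 and 40.5 in F0, at 0.946, 1.02 and 0 in N2.1, and had no read in Balb/c-2 and CBA. F0 stood above all others, and against the floor the copy was at least 50.02-fold lower in Balb/c-2 and 39.97-fold lower in CBA. It reached the filter through F0 alone, so no p is given. Capn9, a calpain protease gene, had at most 0.954 normalised reads in F0 and at most 19.01 in any tumour.

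Among copies in genes, no change met the naming rule, since none of the 5 called copies had a mean of 100, and those described here were chosen after their values were seen. For both called copies that overlap an exon, copy and gene had higher values in every N2.1 tumour than in F0. The IAP1-MM_I-int with IAP1-MM_LTR copy at chr16:36221269-36223022 holds the start of 2010005H15Rik, which RefSeq names Csta2, a cystatin gene, and whose window is printed above. The copy stood at 9.99, 0.954 and 10.6 in F0, 121, 93.7 and 68.6 in N2.1, 30.6, 5.6 and 10.3 in Balb/c-2, and 29.8, 67.6 and 9.96 in CBA. N2.1 was above all other tumours (log2 change against F0 3.89 ± 0.84, limma adjusted p = 0.031). The gene stood at 39.96, 2.86 and 68.4 in F0 and 688, 313 and 504 in N2.1 (4.43, limma adjusted p = 0.0178). The IAPEY3-int with IAPLTR4 copy at chr10:79412907-79418028 overlaps an exon of the lincRNA Gm47015 and stood at 2.22, 4.77 and 0.964 in F0, 20.8, 84.6 and 51.5 in N2.1, 158, 62.5 and 12.01 in Balb/c-2 and 45.1, 24.9 and 44.8 in CBA. Every later tumour was above F0 (limma adjusted p = 0.0316 in N2.1 and 0.0411 in Balb/c-2), and the gene row had nearly the same values, as reads may be counted in both. F0 had no part in this copy passing the filter, so its p-values describe the copy alone.

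In genes but outside exons, copy and gene could part. The IAPEz-int with IAPLTR2_Mm copy at chr9:121024682-121029471 in Ulk4, a kinase gene, stood at 7.77, 10.5 and 8.67 in F0, 148, 61.1 and 69.5 in N2.1, 11.6, 13.1 and 20.6 in Balb/c-2 and 9.92, 5.93 and 3.74 in CBA (N2.1 against F0: log2 change 3.13 ± 0.57, limma adjusted p = 0.0137). N2.1 was above all other tumours. Ulk4 stood at 158, 239.5 and 161 in F0 and 138, 170.1 and 74.1 in N2.1 (-0.60, adjusted p = 0.489). The IAPEz-int with IAPLTR1_Mm copy at chr2:145625239-145630634 in Slc24a3, a potassium-dependent sodium-calcium exchanger gene, stood at 2.22, 1.91 and 0.964 in F0, 46.4, 68.3 and 65.9 in N2.1, and at most 1.80 in Balb/c-2 and CBA. It reached the filter through N2.1 alone, so no p is given. Slc24a3 stood at 19.98, 50.6 and 15.4 in F0 and 64.4, 103 and 49.7 in N2.1 (1.43, adjusted p = 0.23).

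Over copies with a single tested host gene, the log2 changes of copy and host correlated with r between 0.67 and 0.81 over the 46 copies in exons in the 5 comparisons, and between -0.06 and 0.30 over the 70 copies in genes but no exon. Of the 46, 30 to 36 had a log2 change of the same sign as their host, and of the 70, 36 to 46 did. These are descriptions across copies, which share libraries and may share reads with the gene.

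**Figure D5:**
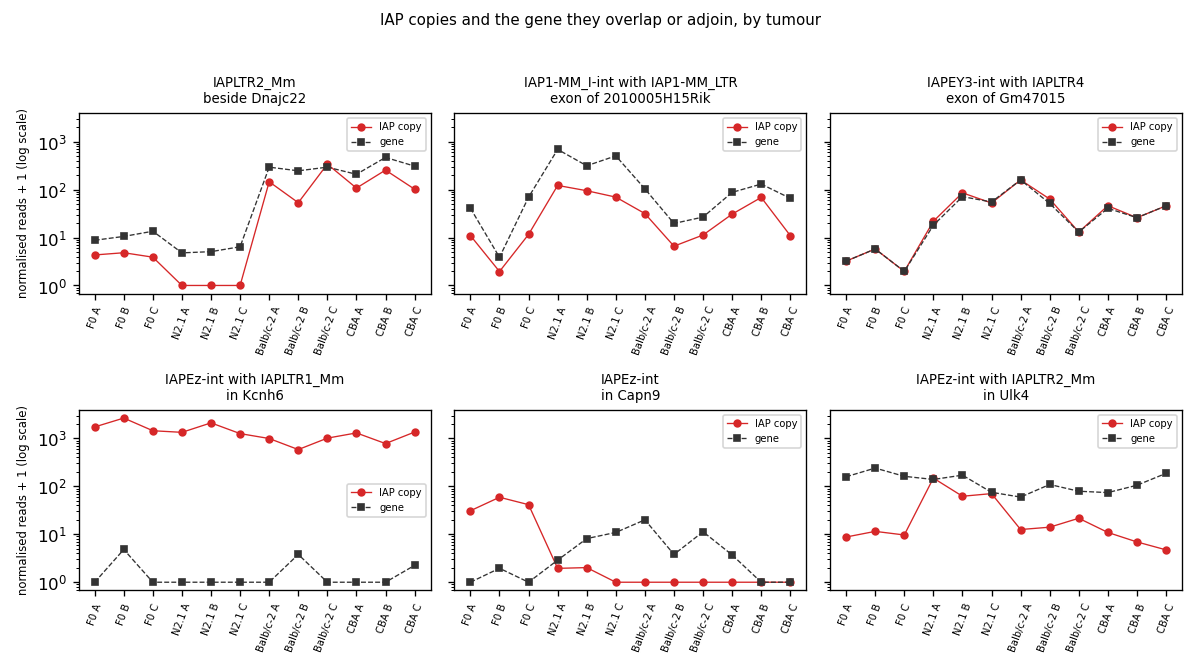
Normalised reads + 1 (y axis, log scale) of 6 IAP copies (red circles) and of the gene each overlaps or adjoins (dark squares) in every tumour (x axis); lines join tumours for legibility. The Kcnh6 copy lies between 584 and 2656 with the gene at 3.82 or lower, while the copies beside Dnajc22 and in exons of 2010005H15Rik and Gm47015 follow the gene.

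Of the 16 most abundant copies, 8 outside and 8 inside genes, all but the chromosome X copy described above were called in no comparison. The highest mean over tumours belonged to the IAPEz-int with IAPLTR1_Mm copy at chr11:106028246-106033560 in Kcnh6, a potassium channel gene, at 1734, 2656 and 1444 in F0, 1337, 2108 and 1258 in N2.1, 994, 584 and 1012 in Balb/c-2, and 1300.0, 779 and 1355 in CBA. Its mean per kilobase of copy was 259.6 normalised reads, while Kcnh6 itself had at most 3.82 normalised reads in any tumour. The IAPEY4_I-int with RLTR46B copy at chr6:3333361-3341607 overlaps an exon of Gm20559 and stood at 798 ± 180 in F0, 1126 ± 223 in N2.1, 1157 ± 539 in Balb/c-2 and 1487 ± 180 in CBA (SD, n = 3), or 139 per kilobase. The IAPEz-int with IAPLTR1_Mm copy at chr11:116389406-116394709 in Rnf157, a ubiquitin ligase gene, stood at 509.5, 465 and 509 in F0, 948, 1024 and 1015 in N2.1, 1084, 646 and 1450.0 in Balb/c-2, and 1225, 1216 and 1057 in CBA. All 9 later tumours were above the 3 F0 tumours, without passing the test, and Rnf157 stood at 585 to 1453 in F0 and 568 to 1189 later.

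Like copies in genes but no exon lay in Mbnl1 (chr3:60489873-60495083, 677 ± 293 in F0 and 284 ± 46.8 in Balb/c-2) and Celf2 (chr2:7404073-7409352, 516 ± 101 and 313 ± 92.6), both splicing factor genes, and in the pseudogene Gm49329 (IAPEz-int with IAPLTR2b, chr12:17928654-17931157, 193 ± 18.2 in F0 and 323 ± 67.1 in CBA). The IAPEz-int copy at chr2:84505627-84510082, in an exon of the lincRNA Gm13710, stood at 663 ± 249 in F0 and 238 ± 45.4 in Balb/c-2. None of these differences was called. The IAP1-MM_I-int copy of 453 bases at chr13:111487909-111488361, in an exon of Gpbp1, a gene for a promoter-binding protein, had 789 normalised reads per kilobase. It varied more within groups than between them, at 366, 737 and 290.0 in F0, 144, 523 and 191 in N2.1, 54.6, 804 and 22.3 in Balb/c-2, and 554, 34.4 and 569 in CBA, while Gpbp1 stood between 2916 and 5886.

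Of the abundant copies outside genes, IAPEz-int with IAPLTR1_Mm at chr13:100588952-100594225 led with 633 ± 139 in F0, 797 ± 136 in N2.1, 396 ± 112 in Balb/c-2 and 700 ± 216 in CBA, or 119.7 per kilobase of copy. The IAPEY4_I-int with IAPEY4_LTR copy at chr4:3192212-3200530, whose end lies in the Gm52720 window printed above, stood at 282, 406 and 348 in F0, 89.0, 138 and 134 in N2.1, 936, 336 and 729.9 in Balb/c-2 and 982, 319 and 1396 in CBA. The N2.1 tumours were the lowest of all. A second copy of this name at chr8:72024783-72033082 stood at 203 ± 54.8 in F0, 95 ± 33.1 in N2.1, 221 ± 35.0 in Balb/c-2 and 338 ± 132 in CBA. The IAPEz-int with IAPLTR1_Mm copy at chr6:10689580-10694806, 79308 bases from the nearest gene, stood at 191 ± 56.5 in F0, 449.8 ± 150.1 in N2.1, 363 ± 80.5 in Balb/c-2 and 484 ± 139 in CBA. Copies at chr5:30223045-30230157 (IAPEz-int with IAPLTR2b, mean 422) and chr1:23301117-23306003 (IAPEz-int with IAPLTR1_Mm, mean 233) were also among the 8 most abundant outside genes. The lone IAPEY_LTR of 374 bases at chr11:83217934-83218307, 2780 bases from Slfn3, had 800.4 normalised reads per kilobase, with 799 in Balb/c-2 C and 112 to 423 in the other tumours. These 7 copies were called in no comparison, unlike the chromosome X copy that is the remaining one of the 8.

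Tumours of 1 passage could differ widely in single copies. Copies with at least 100 normalised reads in 1 tumour and at most 5 in another of the same group numbered 0 in F0, 2 in N2.1, 2 in Balb/c-2 and 5 in CBA, of 344. This rule was chosen after the values were seen. The IAPEz-int copy at chr8:39379418-39385804 stood at 0, 640.2 and 369.7 in Balb/c-2, at 1.80, 232 and 0 in CBA, and at most 2.22 in F0 and N2.1. The IAPLTR1a_Mm LTR beside it, at chr8:39379069-39379405, stood at 0, 17.7 and 116 in Balb/c-2 and 0, 81.8 and 0 in CBA. Balb/c-2 B, Balb/c-2 C and CBA B also had the highest values of the IAPEz-int with IAPLTR2b copy at chr17:32717891-32720118 (68.1, 36.9 and 157, against at most 3.61 elsewhere) and of the IAPEz-int with IAPLTR1_Mm copy at chr7:137641669-137646974 (149, 214 and 227, against at most 41.0). The IAPEz-int with IAPLTR2b copy at chr7:4276857-4281273 stood at 0, 235 and 225 in N2.1, 47.7, 27.7 and 65.5 in F0 and at most 0.827 later.

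Across the 344 tested copies, Pearson correlations of log2(value + 1) between tumours of a group ran from 0.813 to 0.887 in F0, 0.782 to 0.864 in N2.1, 0.619 to 0.721 in Balb/c-2 and 0.646 to 0.883 in CBA. Each F0 and N2.1 tumour correlated more with its own group than with any other tumour. In contrast, CBA B correlated at 0.646 and 0.659 with the other CBA tumours and at 0.72 with Balb/c-2 C, and Balb/c-2 B at 0.619 and 0.621 with its group and at 0.684 with CBA A. These are correlations across copies, which are not independent. CBA B and Balb/c-2 C also had the fewest transposable element copies with a read, 65510 and 66073. The other tumours had 102325 (F0 C) to 239874 (Balb/c-2 A), although Balb/c-2 C was sequenced deepest. The part of this difference in the correlations was not tested.

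Genes that silence or restrict IAP elements, or set or remove DNA methylation, were measured in the same tumours. Of 42 genes tested from the silencing list, which also holds Tet enzymes that remove DNA methylation, 7 were lower and none higher in N2.1 than in F0 by limma, beside 2.9% lower and 5.0% higher among 17491 genes, and their median log2 change was -0.28 against -0.02 over all genes. The 3 that fell most were Tet1, a DNA demethylase (99.9, 398 and 43.4 to 9.46, 21.4 and 3.61; log2 change -3.56 ± 0.76, adjusted p = 0.0181), Morc1, a silencing factor of male germ cells (7.77, 2.86 and 3.85 to 1.89, 0 and 0; -1.94 ± 0.51, adjusted p = 0.0393, or 0.0525 with the replicate block and 0.0811 by edgeR) and Zfp57, a zinc finger protein that guards imprints (158, 176.5 and 149 to 61.5, 38.7 and 56.9; -1.63 ± 0.40, adjusted p = 0.032). Of 13 restriction genes, 1 was higher in N2.1: Samhd1, a dNTPase that limits reverse transcription, rose from 9308, 4808 and 8190 to 26279, 26206 and 24808 (1.85 ± 0.30, adjusted p = 0.00488). In place of the 8 called in both lists, 1 was called without F0 B or without N2.1 C, 2 without F0 C or N2.1 A, 3 without F0 A, 4 without CBA A or CBA C and 5 without N2.1 B. Scaled to total gene reads, the split over all genes was 637 higher and 820 lower in place of 875 and 508.

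From F0 to Balb/c-2 1 silencing gene and 1 restriction gene rose (1.88% of all genes were higher and 1.63% lower). Morc1 stood at 576, 884 and 1058 (log2 change 7.22 ± 0.51, limma adjusted p = 2.58e-05) and Samhd1 at 13902, 23764 and 14499 (1.24 ± 0.30, adjusted p = 0.0441, or 0.314 with flow cell as a term). In CBA against F0 Morc1 (993, 682 and 1040.0; 7.34 ± 0.51, limma adjusted p = 1.65e-05), Samhd1 (1.34 ± 0.30, adjusted p = 0.0246, or 0.517 with flow cell as a term) and Apobec3, a cytidine deaminase known to restrict retroviruses (7403, 14053 and 7083 against 3744, 3590.0 and 4238 in F0; 1.23 ± 0.32, adjusted p = 0.0494, or 0.686 with flow cell as a term) were higher, beside 2.36% higher and 2.69% lower of all genes. Morc1 was higher in Balb/c-2 than in N2.1 (9.16 ± 0.51, limma adjusted p = 6.26e-06). Trim5, of the restriction list, was lower (-1.36 ± 0.31, limma adjusted p = 0.046, or 0.0645 by edgeR and 0.06 with flow cell as a term). Of all genes 0.943% were higher and 1.38% lower, or 192 higher and 133 lower in place of 165 and 241 when scaled to total gene reads. In CBA against Balb/c-2 0.109% of all genes were higher and 0.932% lower by limma, and the listed genes are not reported here for it. Trim28, the corepressor of KRAB zinc finger proteins, stood at 20254, 23750 and 22853 in F0, 15411, 14602 and 15297 in N2.1, 13596 to 17506 in Balb/c-2 and 17166 to 18602 in CBA, and was not called (N2.1 against F0: -0.56 ± 0.18, limma adjusted p = 0.0745). Setdb1, a histone methyltransferase, and Dnmt1, which maintains DNA methylation, were not called in any comparison (N2.1 against F0: -0.19 ± 0.22 and -0.45 ± 0.27). Whether these genes bear on the IAP values was not tested.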

How the data were processed

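Per the labels' protocols, poly(A) RNA of 12 tumours was made into libraries by a text that covers both directional and non-directional kits. The submitters' processing notes list mm10, featureCounts 1.5.0-p3, StringTie 1.3.3b and HISAT2 2.0.5. For their roles, the strand setting and the placing of multi-mapping reads, no account is given in the sources used here. The authors deposited 1 table of normalised signal for genes and repeat copies. All its values were whole multiples of 1 step per library (100% within 0.1 reads), so whole reads were recovered for edgeR 4.0.16 and DESeq2 1.42.0 as alternatives. Copies were classed by overlap with GENCODE M21 genes and exons (bedtools 2.31.1). Features at 10 or above in 3 or more tumours entered limma 3.58.1 (R 4.3.3) on log2(value + 1), with a trended prior, robust moderation and 1 mean per group over 12 tumours, two-sided, Benjamini-Hochberg adjusted over all copies, subfamilies or genes tested and called under 0.05. Log2 changes of low features are understated by the pseudocount. Log2 sums were compared with exact permutation tests of a difference among the 4 groups. Floors and exact intervals (SciPy 1.17.1) cover counting error alone.

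On simulated N2.1 against F0 data for 20277 copies the fit recovered 4%, 46%, 96% and 100% of copies changed 2-, 4-, 8- and 16-fold, with 7 false calls. For 1174 subfamilies it recovered 20%, 96%, 100% and 100%, with 12 false calls. Every feature was simulated with the same dispersion and no tumour was made to deviate. Recovery may therefore be lower in the real tumours, where leaving out single tumours changed many calls. Tumours of the same letter deviated together in N2.1 and F0 over genes (correlations of 0.203, 0.478 and 0.181, but 0.067, 0.42 and 0.279 over copies) and in Balb/c-2 and N2.1 over copies (0.107, 0.475 and 0.151, but 0.065, 0.43 and 0.231 over genes). These 2 comparisons were read with the letter as a replicate block too, which gave 13 in place of 17 copies called and 6 in place of 11. The members, lists and the naming rule were chosen with earlier results of these data known. The rule named, per comparison, the 4 largest rises and falls among called copies whose groups did not overlap and whose higher group averaged 100 or more, outside and inside genes, plus the 8 most abundant copies of each class, the 10 most abundant subfamilies and the largest called ones, up to 3 called genes per list and 5 fixed genes.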

Additional observations from a re-analysis of the deposited data

How the results depend on the processing

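The summed IAP values stayed uncalled in all alternatives tried (18 for the sum outside genes, 17 for each other sum), with adjusted exact permutation p of 0.345 to 0.926 for all copies, 0.135 to 0.926 outside genes, 0.345 to 0.926 in genes but no exon and 0.749 to 0.99 in exons. One of these, without the Y chromosome, was chosen after seeing the data. With total gene reads as the scale, the median log2 change over genes shifted by -0.16 (N2.1) and -0.18 (CBA) against F0. Of the 17 calls of single copies named by change, DESeq2, TMM scaling and a pseudocount of 5 kept 17, total gene reads scaling and the replicate block 15, no filter 14, edgeR 13 and the flow cell term 9. Some of the 17 belong to the chr2:46574320 and chr6:55022353 copies, which reached the filter through N2.1 alone. A difference was fixed there by that choice, so keeping those calls is no support. Others belong to the chr6:128921112, chr15:99106517 and chr2:174984010 copies, which reached the filter only with the groups where they are high. Keeping these other calls is no independent support of a difference either. No call of a named copy changed sign. The split of genes between higher and lower calls turned with total gene reads scaling in N2.1 and Balb/c-2 against F0 and in Balb/c-2 against N2.1, and without Balb/c-2 A the median log2 change of IAP subfamilies in CBA against Balb/c-2 moved from -0.52 to 0.19.

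Listed first for the comparisons of N2.1, Balb/c-2 and CBA with F0, next for Balb/c-2 with N2.1, and last for CBA with Balb/c-2, the IAP copies called (17, 12, 9, 11 and 0) became 9, 5, 3, 6 and 0 by edgeR and 30, 39, 23, 23 and 14 by DESeq2. Without a filter 10 were called in N2.1 against F0 and 2 in CBA against Balb/c-2, where a pseudocount of 5 gave 4. The flow cell term, which rests on Balb/c-2 A, left 1, 1 and 3 in Balb/c-2 and CBA against F0 and in Balb/c-2 over N2.1. The replicate block left 13 in N2.1 against F0, where it ended the call of Morc1, 6 in Balb/c-2 against N2.1, and 4 in Balb/c-2 against F0, where same-letter correlations were as low as 0.062 over genes and 0.025 over copies and the letters were not taken as pairs. Leaving out 1 tumour gave 1 to 20, 3 to 28, 2 to 14, 3 to 23 and 0 to 7.

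Subfamilies called (2, 2, 0, 0 and 0) became 6, 12, 3, 5 and 0 by DESeq2. In Balb/c-2 against F0 they were 1 without a filter, with total gene reads scaling and with the block, and 18 with the flow cell term, which gave 12 in CBA against F0 and 11 in Balb/c-2 against N2.1, where TMM scaling gave 1. Leaving out 1 tumour gave 1 to 3, 0 to 10, 0 to 1 (1 without Balb/c-2 C), 0 to 2 (1 without Balb/c-2 A or B, 2 without CBA B) and 0 to 0. For sums outside genes (2, 2, 0, 1 and 0), Balb/c-2 against F0 gave 1 without a filter, with total gene reads scaling or by edgeR, 16 by DESeq2 and 22 with the flow cell term. CBA against F0 gave 1 with a pseudocount of 5, 2 by DESeq2 and 16 with the flow cell term. Balb/c-2 against N2.1 gave 0 by edgeR, 5 by DESeq2 and 17 with the flow cell term, and CBA against Balb/c-2 gave 1 by DESeq2. Leaving out 1 tumour gave 2 to 3, 0 to 3, 0 to 2 (2 without Balb/c-2 A, 1 without Balb/c-2 B or C), 0 to 1 and 0 to 0.

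Silencing and restriction genes called in Balb/c-2 against F0 (2) numbered 1 by edgeR, with the flow cell term and with the block, and 1 to 4 when 1 tumour was left out (2 without Balb/c-2 A, 4 without CBA B, 1 without any other). In CBA against F0 (3) they numbered 1 with the flow cell term and 1 to 3 when 1 tumour was left out (1 without F0 B, CBA A or CBA B), and in N2.1 against F0 (8) 1 to 10. The causes of these changes were not tested. In simulation 4% of copies and 20% of subfamilies changed 2-fold were recovered. Neither the depth nor the dispersion was varied.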
